A study of Mus musculus with 14 samples.

Results

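The genes of the proteasome were followed through meiosis into the haploid phase of mouse spermatogenesis. They were taken as every row of the expression tables whose symbol starts with Psm, a letter from a to g and a digit, which gave 50 of 20626 genes. By role these were 8 subunits of the alpha rings, 3 catalytic and 4 non-catalytic subunits of the beta rings, 4 immune and thymic beta subunits, 6 base ATPases, 11 other subunits of the regulatory particle, 3 chaperones of the regulatory particle, 4 chaperones of the core particle, 4 activators and 1 inhibitor. The remaining 2 symbols, Psmc3ip and Psme2b, fit the rule by name. Psmc3ip encodes a partner of the meiotic recombinases and is not a proteasome subunit.

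Round spermatids (RS) and pachytene/diplotene spermatocytes (PD) had been isolated by flow cytometry from the testes of adult C57BL/6J mice. The 4 groups were RS Setd2KO, RS WT, PD Setd2KO and PD WT, with 2 RNA-seq libraries and 1 H3K36me3 peak list each. The labels give the genotype only as Setd2KO or WT, so the allele, the cells in which Setd2 was deleted and the number of animals behind a library are not given in the sources used here. Whether paired libraries of a group stem from different animals is also not labelled. The p-values therefore reflect variation between libraries, and that variation may be technical.

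The proteasome is a barrel of stacked alpha and beta rings, the core particle, that cuts proteins marked with ubiquitin. Some of its constitutive beta subunits hold the cutting sites, and the alpha rings gate the entrance. A regulatory particle, with a base of ATPases and a lid, binds the ends of the barrel, removes ubiquitin and feeds the protein in, while activators bind the same ends without ATP. Male germ cells of mice carry a form with the germ cell alpha subunit Psma8 in the place of Psma7, and the activator Psme4 is known in mouse testis for its part in the removal of histones before protamines are laid down. Setd2 is a histone methyltransferase that travels with RNA polymerase and writes H3K36me3 along transcribed gene bodies.

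Depth ranged over the 8 libraries from 50.8 to 84.9 megareads, at which 1 read per kilobase is worth 0.0118 to 0.0197 FPKM (fragments per kilobase per megaread mapped). Summed over 12 spermatocyte markers the level was 463 and 425 FPKM in RS Setd2KO, 302 and 299 FPKM in RS WT, 947 and 1006 FPKM in PD Setd2KO, and 783 and 894 FPKM in PD WT. Over 12 round spermatid markers it was 1620.5 and 1683 FPKM in RS Setd2KO, 4788 and 4606 FPKM in RS WT, 226 and 156 FPKM in PD Setd2KO, and 233 and 221 FPKM in PD WT. The spermatid sums are led by Tnp1, Tnp2, Prm1 and Prm2, and in PD they hide markers that differ in direction. Of the 12, limma called 6 higher and 3 lower in PD Setd2KO than in PD WT. Spaca1 had 26.8 and 13.8 FPKM in PD Setd2KO, against 2.92 and 4.85 FPKM in PD WT. Prm1 had 29.3 and 20.4 FPKM, against 43.6 and 43.0 FPKM. Sums over 10 leucocyte markers lay between 2.28 and 4.97 FPKM in every library, and the T cell marker Cd3e was under 0.1 FPKM in all 8. Sums over 8 Sertoli cell markers were 11.5 and 9.78 FPKM in RS Setd2KO, 4.89 and 6.72 FPKM in RS WT, and 2.06 to 3.22 FPKM in the PD libraries, with Fshr under 0.1 FPKM throughout. Setd2 itself had 12.1 and 8.67 FPKM in RS Setd2KO, 5.24 and 5.58 FPKM in RS WT, 21.0 and 21.4 FPKM in PD Setd2KO, and 21.2 and 19.1 FPKM in PD WT. It was called higher in RS Setd2KO than in RS WT, by 0.80 ± 0.15 on the log2 scale relative to the median of all genes (SE, limma, adjusted p = 0.00162). Since FPKM is summed over the entire gene, it cannot show whether a part was deleted, and the genotypes are as labelled.

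The germ cells carried a proteasome set in which Psma8 stood far above Psma7 in all 4 groups. Psma8 (chromosome 18, 14864660 to 14920808, plus strand, mm9) had 13.3 and 10.9 FPKM in RS Setd2KO, 9.10 and 8.03 FPKM in RS WT, 119.5 and 127 FPKM in PD Setd2KO, and 92.3 and 108 FPKM in PD WT. Psma7 (chromosome 2, 179771072 to 179777169, minus strand) had 2.05 and 2.01 FPKM in RS Setd2KO, 2.09 and 2.11 FPKM in RS WT, 3.56 and 4.48 FPKM in PD Setd2KO, and 4.00 and 5.93 FPKM in PD WT. The ratio of Psma8 to Psma7, both per kilobase, was 6.48 and 5.46 in RS Setd2KO, 4.35 and 3.81 in RS WT, 33.6 and 28.4 in PD Setd2KO, and 23.0 and 18.2 in PD WT. At both stages the ratios of the Setd2KO libraries lay above those of the WT libraries without overlap, and every PD ratio lay above every RS ratio. How reads that match more than 1 place in the genome were counted is not given in the sources used here, so the level of a gene with near-identical copies is uncertain.

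The other genes of the core particle were not held at equal levels. Among the 15 genes of the constitutive and germ cell core, Psma7 had the lowest group mean in all 4 groups. The highest was Psma6 in both RS groups and Psma8 in both PD groups. The highest mean was 82.6 times the lowest in RS Setd2KO, 87.9 times in RS WT, 30.7 times in PD Setd2KO and 20.2 times in PD WT. Of the catalytic subunits, Psmb6, which cuts after acidic residues, had 91.9 and 95.6 FPKM in RS Setd2KO, 98.5 and 84.4 FPKM in RS WT, 98.2 and 99.0 FPKM in PD Setd2KO, and 75.4 and 107 FPKM in PD WT. The RS Setd2KO libraries lay under the PD Setd2KO libraries, every other pair of groups overlapped, and RS did not pass the test against PD in either genotype (limma, adjusted p = 0.718 in Setd2KO and 0.919 in WT). In the regulatory particle the ATPase gene Psmc3 had the highest mean of 17 subunit genes in every group, with 259 and 265 FPKM in RS Setd2KO, 327 and 287 FPKM in RS WT, 229 and 233 FPKM in PD Setd2KO, and 234 and 324 FPKM in PD WT.

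The immune forms of the catalytic subunits were nearly absent. Psmb8 had 1 to 4 reads in each library, Psmb9 0 to 3 reads and the thymic subunit gene Psmb11 4 to 27 reads, and none of these reached the 1 FPKM group mean required for testing. Psmb10, the immune counterpart of Psmb7, had 0.176 and 0.179 FPKM in RS Setd2KO, 0.204 and 0.217 FPKM in RS WT, 0.915 and 1.16 FPKM in PD Setd2KO, and 0.647 and 0.868 FPKM in PD WT. Its PD levels were all above its RS levels. Psmb7, which cuts after basic residues, stood at 67.2 and 66.3 FPKM in RS Setd2KO, 62.7 and 56.7 FPKM in RS WT, 101 and 107 FPKM in PD Setd2KO, and 69.0 and 86.8 FPKM in PD WT.

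Among the activators the weight lay on Psme4. This gene (chromosome 11, 30671775 to 30780361, plus strand) had 113 and 122 FPKM in RS Setd2KO, 103.4 and 104 FPKM in RS WT, 68.2 and 64.9 FPKM in PD Setd2KO, and 55.3 and 68.8 FPKM in PD WT. Psme3, which encodes the nuclear ring activator, had 8.67 and 9.38 FPKM in RS Setd2KO, 12.1 and 11.2 FPKM in RS WT, 16.2 and 18.2 FPKM in PD Setd2KO, and 11.8 and 14.6 FPKM in PD WT. Psme1 and Psme2, whose products form the interferon-inducible ring, stayed at or under 0.855 and 1.61 FPKM in every library. Psme1, Psmb8, Psmb9, Psmb11 and Psme2b were the 5 members left out of the tests, which leaves 45 tested.

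**Figure D1:**
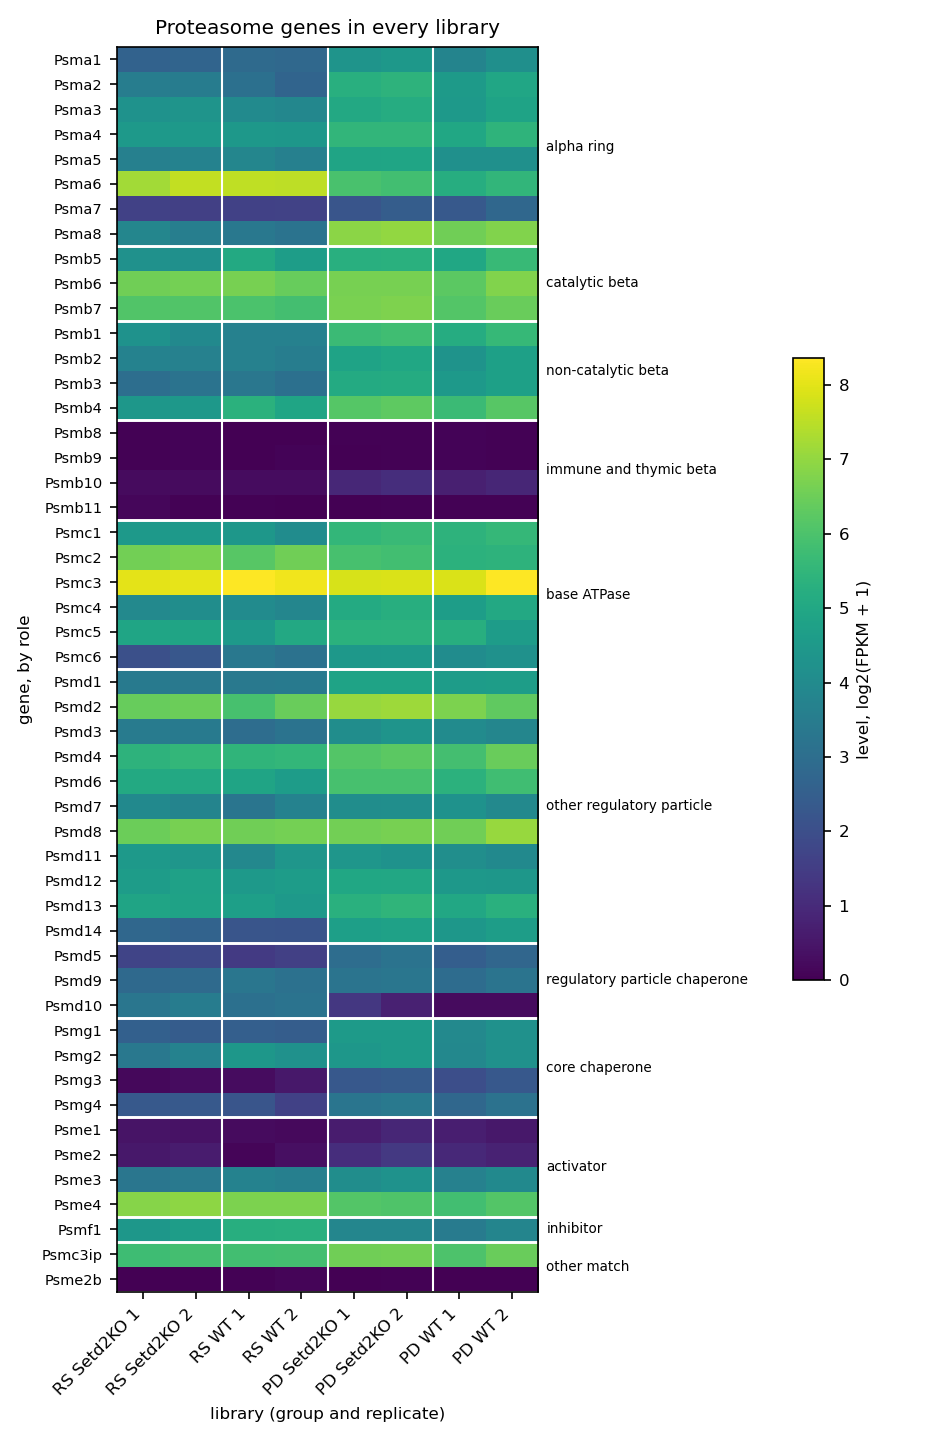
Level of each of the 50 genes, as log2(FPKM + 1), in the 8 libraries, with the genes ordered by role and the libraries by group. Psmc3 and Psmb6 are bright in all libraries, Psma6 is brightest in RS, Psma8 in PD, and Psmb8, Psmb9 and Psmb11 are dark throughout.

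Round spermatids against spermatocytes asks how the set changes across meiosis, and it was tested within each genotype. Log2 changes below are those of log2(FPKM + 1) minus the median over all tested genes of that comparison, since scaling shifts that median. The median was -0.27 for RS against PD in Setd2KO, -0.21 for RS against PD in WT, 0.02 for Setd2KO against WT in RS and 0.19 for Setd2KO against WT in PD. Adjusted p-values are limma's with Benjamini-Hochberg adjustment over 11452 genes and test the change on the deposited scale. In bulk samples, fewer cells of a type and less RNA per cell cannot be told apart.

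Most proteasome genes were lower in RS. In Setd2KO cells 33 of the 45 fell and 5 rose, where 82.7% of all tested genes were called, 48.5% lower and 34.2% higher. In WT cells 29 fell and 5 rose, where 82.7% of all genes were called, 46.7% lower and 36% higher. On the deposited scale the median change of the 45 was -0.81 in Setd2KO, beside -0.27 over all genes, and -0.65 in WT, beside -0.21 over all genes. In Setd2KO the calls lower were 7 of 8 alpha ring genes, 2 of 3 catalytic and 4 of 4 non-catalytic beta genes, 3 of 6 base ATPases, 7 of 11 other regulatory particle genes and 4 of 4 core chaperones. Psmb10, Psme2 and Psmg3 reached the filter only through PD groups. The 5 genes higher in RS were the same in both genotypes: Psma6, Psmc2, Psmd10, Psme4 and Psmf1.

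Across the 45 genes the change in Setd2KO and the change in WT, which share no library, had Pearson's r = 0.930 and Spearman's rho = 0.867. The same r over all 11452 genes was 0.940, and genes are not independent replicates. Of the 45, 28 were called lower in both genotypes and 41 had the same sign.

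**Figure D2:**
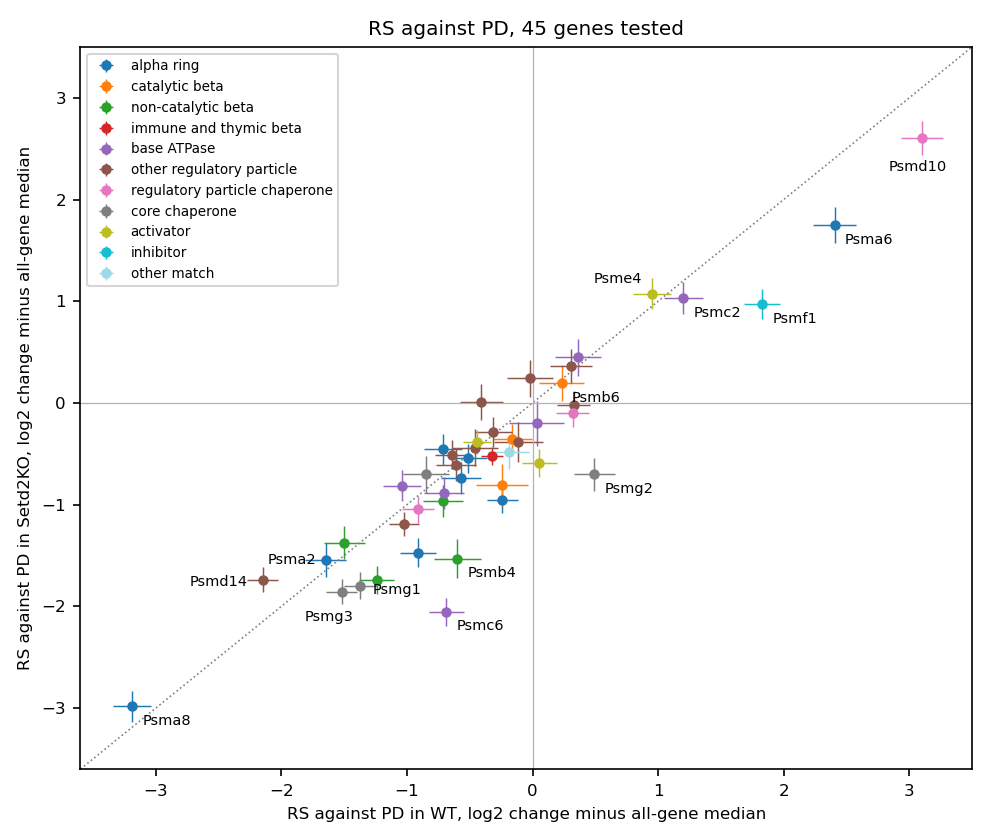
Log2 change of RS against PD in Setd2KO (vertical axis) and in WT (horizontal axis), each minus its all-gene median, for 45 genes with SE bars, coloured by role. Psma8 lies lowest on both axes, at -2.98 in Setd2KO and -3.19 in WT. Psmd10 lies highest, at 2.60 in Setd2KO and 3.10 in WT. Psmc6 and Psmg2 lie below the dotted line of equal change.

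Psma8 had the largest fall, -2.98 ± 0.15 in Setd2KO (SE, limma, adjusted p = 1.29e-08) and -3.19 ± 0.15 in WT (adjusted p = 3.84e-09). Every RS library stood under every PD library, so the stages did not overlap. Psmd14, which encodes the lid protease that strips ubiquitin chains from substrates, fell, with log2 changes of -1.74 ± 0.13 in Setd2KO (limma, adjusted p = 6.33e-08) and -2.15 ± 0.13 in WT (adjusted p = 1.07e-08). It had 5.99 and 5.38 FPKM in RS Setd2KO, 3.56 and 3.46 FPKM in RS WT, 25.2 and 26.4 FPKM in PD Setd2KO, and 20.6 and 23.9 FPKM in PD WT. Psma2, an alpha ring subunit, had 10.6 and 10.3 FPKM in RS Setd2KO, 7.49 and 5.51 FPKM in RS WT, 37.9 and 40.8 FPKM in PD Setd2KO, and 22.7 and 29.8 FPKM in PD WT. In both genes RS Setd2KO lay above RS WT, and both RS groups lay below both PD groups.

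Psma2 and Psmd14 are 2 of the 7 genes whose RefSeq promoter holds a match to the motif of nuclear respiratory factor, and their promoters are shown for that reason. Each line gives the 150 bases before the annotated start, 5′ to 3′ on the gene's strand, from RefSeq (GRCm38.p6), with matches on either strand in capitals, to CCAAT or to the nuclear respiratory factor motif (GCGCA, 1 free base, then GCGC). The Psma2 stretch is chr13:14613092-14613241 and the Psmd14 stretch is chr2:61711544-61711693, both on the plus strand.
Psma2: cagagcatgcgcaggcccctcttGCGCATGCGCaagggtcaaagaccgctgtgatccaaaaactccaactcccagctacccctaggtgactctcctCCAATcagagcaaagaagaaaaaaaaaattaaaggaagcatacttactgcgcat
Psmd14: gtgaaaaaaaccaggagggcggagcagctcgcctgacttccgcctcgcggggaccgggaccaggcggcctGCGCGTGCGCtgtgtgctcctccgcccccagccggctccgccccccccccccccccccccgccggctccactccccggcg

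RefSeq promoters, from 250 bases before to 50 bases after a start, were found for 42 of the 50 genes, as 45 windows. The nuclear respiratory factor motif was in 7 of them (15.6%), beside 4.60% of 32851 promoters of all genes. The 7 were those of Psma2, Psma3, Psma4, Psmc4, Psmc5, Psmd14 and Psmg1. All 7 genes have values in the tests, and in WT their change from PD to RS ran from 0.03 ± 0.22 for Psmc5 (limma, adjusted p = 0.458) to -2.15 ± 0.13 for Psmd14. The antioxidant response element TGACNNNGC, the kind of site through which Nfe2l1 is known to raise proteasome genes, was in 6 windows (13.3%), beside 12.4% of all promoters. CCAAT was in 15 windows (33.3%), beside 37.4% of all, and the cyclic AMP response element TGACGTCA was in 0, beside 1.79% of all. A match is a run of letters and not a measured binding site. The promoters of all genes were not matched to those of the members for level or base composition. The shares therefore cannot show whether a motif is particular to proteasome genes.

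Of the 4 core particle chaperone genes, which help build its rings, 4 fell in Setd2KO and 3 in WT, where Psmg2 had 0.49 ± 0.16 (SE, log2, limma, adjusted p = 0.135). Psmg1 changed by -1.80 ± 0.13 in Setd2KO (SE, log2, limma, adjusted p = 7.65e-08) and by -1.37 ± 0.13 in WT (adjusted p = 4.51e-07). Psmg3 changed by -1.86 ± 0.12 in Setd2KO (adjusted p = 4.02e-08) and by -1.52 ± 0.12 in WT (adjusted p = 1.09e-07). Psmg3 had 0.123 and 0.217 FPKM in RS Setd2KO, 0.225 and 0.469 FPKM in RS WT, 3.93 and 4.28 FPKM in PD Setd2KO, and 3.03 and 3.92 FPKM in PD WT. Its RS levels rest on 6 to 20 reads a library, and at such levels the pseudocount of 1 FPKM makes the log2 change smaller than the ratio. Psmb1, a non-catalytic beta subunit gene, changed by -1.37 ± 0.16 in Setd2KO (adjusted p = 1.89e-06) and by -1.50 ± 0.16 in WT (adjusted p = 1.24e-06).

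Psma6, an alpha ring subunit gene, went the other way from the rest of its ring. It had 144 and 190.3 FPKM in RS Setd2KO, 187 and 183 FPKM in RS WT, 61.6 and 55.9 FPKM in PD Setd2KO, and 35.7 and 43.9 FPKM in PD WT. All RS libraries stood above all PD libraries, and the log2 change was 1.75 ± 0.17 in Setd2KO (SE, limma, adjusted p = 8.39e-06) and 2.40 ± 0.17 in WT (adjusted p = 2.67e-07). The other 7 alpha ring genes fell in both genotypes.

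The deposited tables give Psma6 an interval of its own at each stage. In both RS tables it starts at position 56485209 of chromosome 12 and in both PD tables at 56499812, with the end at 56519446 throughout (mm9, plus strand). The starts lie 14603 bases apart, which is also the distance between the 2 starts that RefSeq gives for the gene. Recovered read numbers put the length of the gene model at 936 bases in the RS tables and 997 bases in the PD tables, so the change in level was computed over models that differ slightly. The 2 promoters are shown because the tables differ in which start they use. They are chr12:55384072-55384221 and chr12:55398675-55398824 (GRCm38.p6, plus strand), the 150 bases before each start, with CCAAT matches on either strand in capitals.
Psma6 outer start: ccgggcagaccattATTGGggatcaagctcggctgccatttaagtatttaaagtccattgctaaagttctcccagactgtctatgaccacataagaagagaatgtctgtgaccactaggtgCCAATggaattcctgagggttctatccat
Psma6 inner start: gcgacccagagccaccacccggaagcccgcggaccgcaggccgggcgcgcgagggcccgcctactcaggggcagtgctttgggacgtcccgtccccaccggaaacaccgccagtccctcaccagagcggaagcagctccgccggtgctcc

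Psmd10 encodes gankyrin, a chaperone that assembles the regulatory particle base, and is the member on the X chromosome (137482964 to 137491250, minus strand, mm9). It had 8.64 and 10.3 FPKM in RS Setd2KO, 7.50 and 8.08 FPKM in RS WT, 1.53 and 0.693 FPKM in PD Setd2KO, and 0.188 and 0.186 FPKM in PD WT. The levels did not overlap between the stages, and the log2 change was 2.60 ± 0.17 in Setd2KO (SE, limma, adjusted p = 1.44e-07) and 3.10 ± 0.17 in WT (adjusted p = 1.96e-08). The X chromosome is known to be silenced in pachytene spermatocytes.

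The other 3 genes that rose in RS in both genotypes were Psmf1, Psmc2 and Psme4. Psmf1, which encodes an inhibitor and adaptor of the core particle, rose by 0.97 ± 0.15 in Setd2KO (SE, log2, limma, adjusted p = 0.000795) and by 1.83 ± 0.15 in WT (adjusted p = 7.93e-07). Psmc2, a base ATPase gene, rose by 1.03 ± 0.16 in Setd2KO (adjusted p = 0.000733) and by 1.20 ± 0.16 in WT (adjusted p = 9.71e-05). Psme4 rose by 1.08 ± 0.15 in Setd2KO (adjusted p = 0.000413) and by 0.95 ± 0.15 in WT (adjusted p = 0.000779). These 3 genes, Psma6 and Psmd10 kept their calls in both genotypes in every alternative run.

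**Figure D3:**
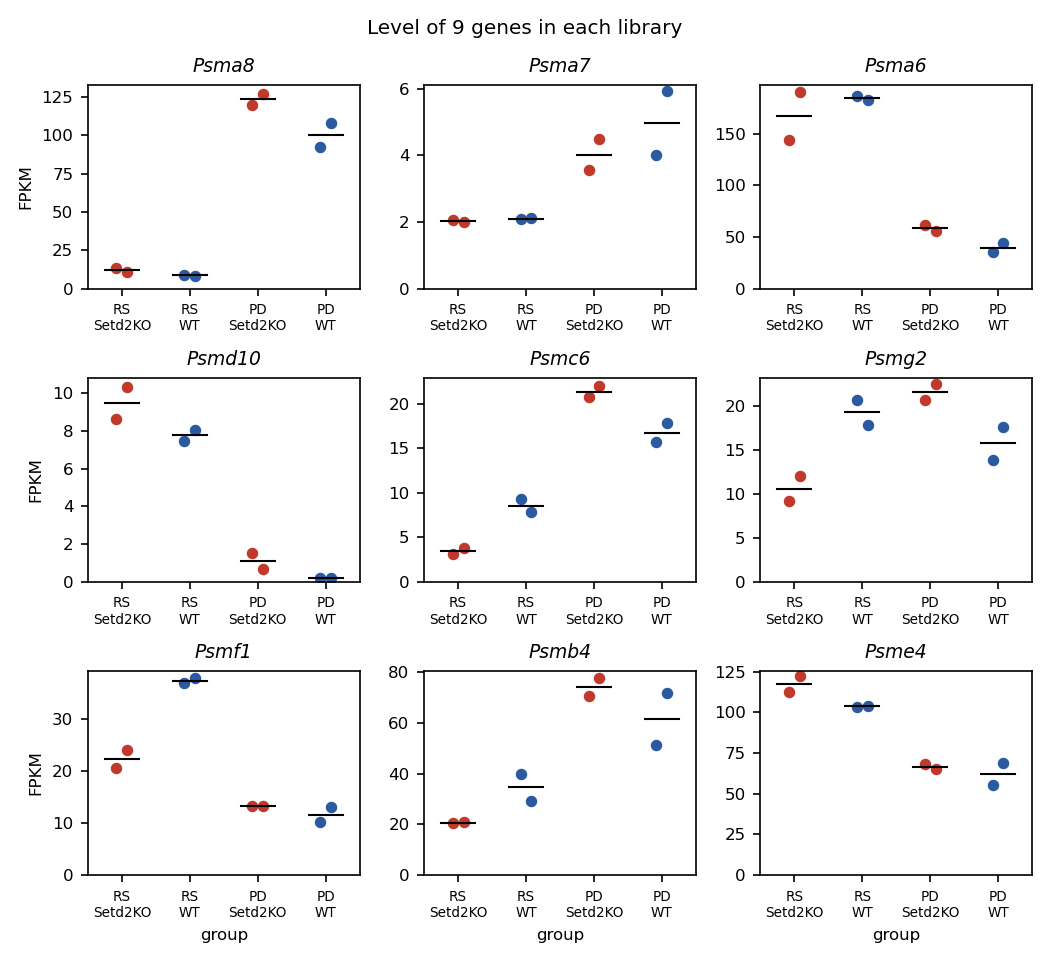
FPKM of 9 genes in each library, with 1 point per library and a bar at the mean of the 2 libraries of a group, and axes that start at 0. Psma8 and Psma7 are highest in PD, Psma6, Psmd10 and Psme4 in RS, and Psmf1, Psmc6, Psmg2 and Psmb4 are lower in RS Setd2KO than in RS WT with no overlap.

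In round spermatids, Setd2KO against WT asks what loss of Setd2 does to the set after meiosis. Of the 45 genes, 5 rose and 5 fell, where 20.9% of all tested genes were called higher and 21.8% lower. The median change was 0.09, beside 0.02 over all genes, both on the deposited scale. The share called, 22.2%, lay under the 42.7% of all genes called in either direction. The 5 that fell were Psmc6, Psmg2, Psmf1, Psmb4 and Psmb5, and the 5 that rose were Psma2, Psmd14, Psma8, Psmb1 and Psme2.

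Psmc6, an ATPase gene of the base, had the largest fall of the 45. It had 3.14 and 3.84 FPKM in RS Setd2KO, against 9.27 and 7.78 FPKM in RS WT, and the groups did not overlap. The log2 change was -1.10 ± 0.14 (SE, limma, adjusted p = 0.000134, and from 5.16e-05 to 0.0035 over 15 alternatives). The other 5 base ATPases were not called in RS, with changes from -0.24 ± 0.18 for Psmc3 to 0.25 ± 0.15 for Psmc1.

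Psmg2, the partner of Psmg1 in the first chaperone pair of alpha ring assembly, had 9.15 and 12.1 FPKM in RS Setd2KO, against 20.7 and 17.8 FPKM in RS WT. Psmf1 had 20.6 and 24.1 FPKM in RS Setd2KO, against 37.0 and 38.0 FPKM in RS WT. In both genes the Setd2KO libraries lay under the WT libraries. The changes were -0.83 ± 0.16 for Psmg2 (limma, adjusted p = 0.00257, from 0.00126 to 0.0354 over 15 alternatives) and -0.74 ± 0.15 for Psmf1 (adjusted p = 0.00239, from 0.000666 to 0.0315). Psmg1 did not follow Psmg2, at -0.03 ± 0.13 (adjusted p = 0.941).

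Of the beta ring genes, Psmb4 had 20.4 and 20.7 FPKM in RS Setd2KO, against 39.9 and 29.3 FPKM in RS WT. Psmb5, which encodes the chymotrypsin-like subunit, had 17.7 and 17.4 FPKM in RS Setd2KO, against 32.4 and 24.0 FPKM in RS WT. The first RS WT library stood above the second in both genes. Psmb4 fell by 0.72 ± 0.19 (SE, log2, limma, adjusted p = 0.0118). The call was lost without the first RS Setd2KO library (adjusted p = 0.0662) and without the first RS WT library (adjusted p = 0.128). Psmb5 fell by 0.66 ± 0.21 (adjusted p = 0.028), and the call was lost without either RS Setd2KO library (adjusted p = 0.0999 and 0.0948) and without the first RS WT library (adjusted p = 0.228). Over 15 alternatives the adjusted p ran from 0.00434 to 0.128 for Psmb4 and from 0.00775 to 0.228 for Psmb5.

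Among the genes higher in RS Setd2KO, Psmd14 rose by 0.55 ± 0.13 (SE, log2, limma, adjusted p = 0.00428), with its values as given above, and kept its call in all 15 alternatives, where the adjusted p ran from 0.0011 to 0.0464. Psma2 rose by 0.61 ± 0.17 (adjusted p = 0.0113), a call lost without the first RS Setd2KO library (adjusted p = 0.0637) and without the second RS WT library (adjusted p = 0.115). Psma8 rose by 0.44 ± 0.15 (adjusted p = 0.0315). Its call was lost without any single RS library other than the second RS Setd2KO library, and without either PD Setd2KO library, with adjusted p from 0.0518 to 0.248. Psmb1 rose by 0.42 ± 0.16 (adjusted p = 0.0479), and the same 5 libraries each ended its call, with adjusted p up to 0.304. Psme2 rose by 0.34 ± 0.11 (adjusted p = 0.0287) at levels of 0.454 and 0.551 FPKM in RS Setd2KO, against 0.0886 and 0.271 FPKM in RS WT, and leaving out either RS Setd2KO library or the first RS WT library ended the call (adjusted p = 0.0545 to 0.237).

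Spermatocyte RNA in the RS libraries was estimated from transcripts chosen on the WT libraries. Over 24 transcripts with at least 20 FPKM in PD WT and at most a 20th of that level in RS WT, the median share of the PD level was 5.35% and 4.68% in RS Setd2KO, against 3.66% and 4.08% in RS WT. The choice holds the WT share low and leaves the Setd2KO share free, so no difference is read from these shares. With RNA subtracted at those shares, an alternative chosen after seeing the data, 3 proteasome genes were called higher and 6 lower. Over all genes 2174 of 11439 were called higher and 2736 lower with subtraction, beside 2390 and 2499 of 11452 without. As the WT shares are held low, this subtraction tends to lower Setd2KO more than WT for genes high in PD. Nothing is read from the calls it ended. Psma8 was no longer called, with a log2 change of 0.31, beside 0.44 without subtraction (limma, adjusted p = 0.199). Psmb1 was no longer called either (adjusted p = 0.0769), although its log2 change was 0.42 both with and without subtraction, and 0.39 with and 0.44 without on the deposited scale. Of the 12 round spermatid markers 7 were called lower in RS Setd2KO and 0 higher, and their part in the changes of the proteasome genes was not tested.

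**Figure D4:**
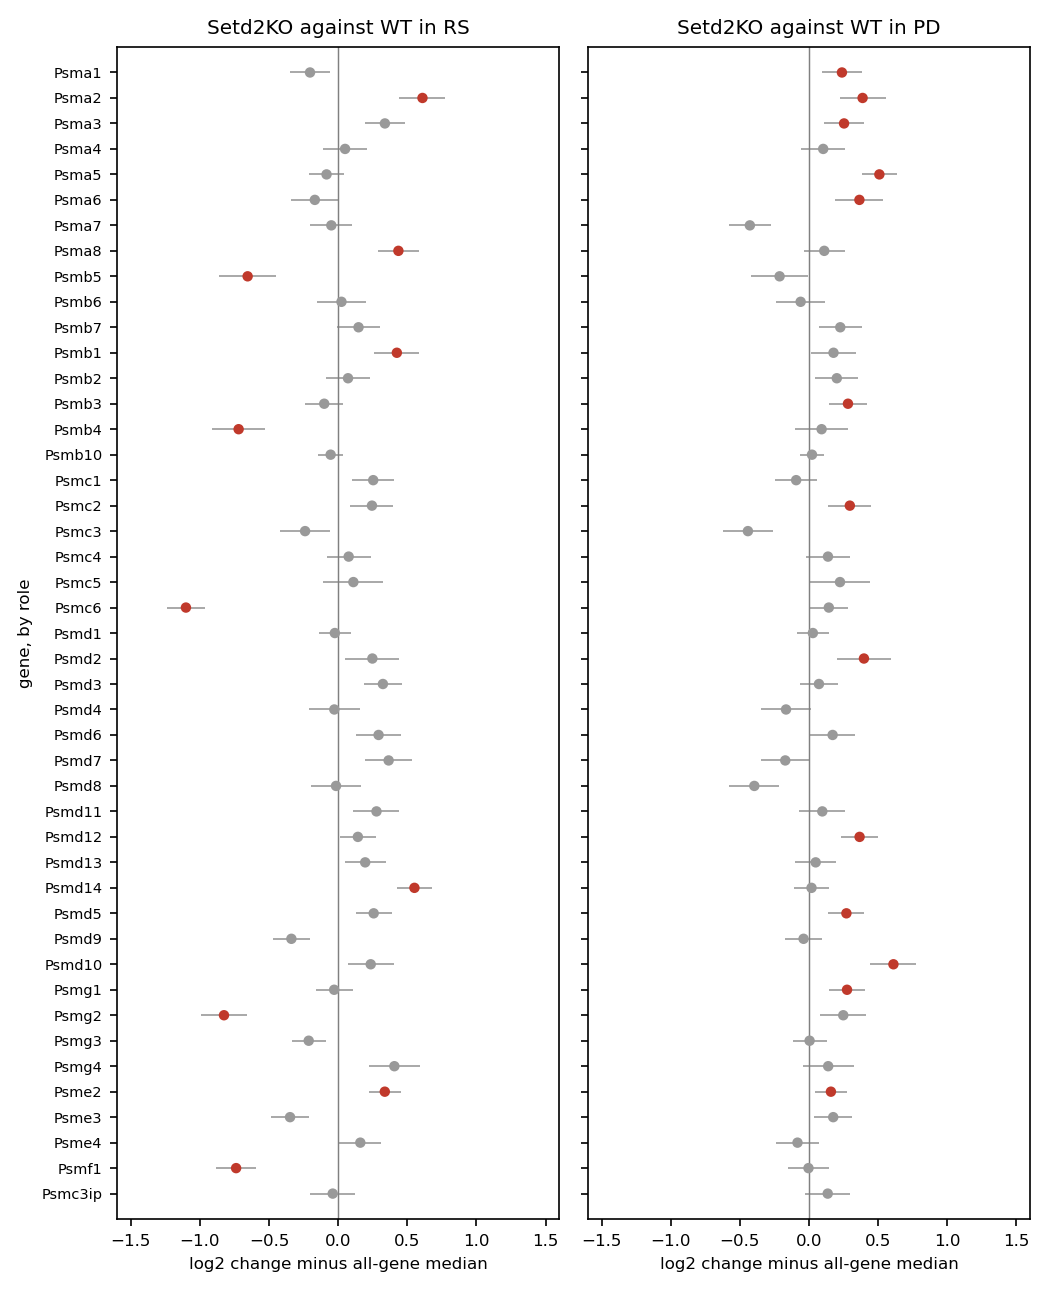
Log2 change of Setd2KO against WT in RS (left) and in PD (right), minus the all-gene median, with SE bars, for 45 genes ordered by role. Red points passed limma's test at an adjusted p under 0.05, 10 in RS and 13 in PD, and grey points did not. In RS the changes run from -1.10 for Psmc6 to 0.61 for Psma2, and in PD the highest is Psmd10 at 0.61.

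In spermatocytes, Setd2KO against WT gave 13 genes that rose and 0 that fell of the 45, where 36.1% of all tested genes were called, 29.8% higher and 6.3% lower. The share of the 45 called higher, 28.9%, was near that of all genes. At an unadjusted limma p under 0.05 there were 21, and the shares of all genes given here are for the adjusted p. The share of all genes at the unadjusted threshold was not computed, so nothing is read from the 21. The median change was 0.33, beside 0.19 over all genes on the deposited scale. The calls were 5 of 8 alpha ring genes (Psma1, Psma2, Psma3, Psma5 and Psma6), Psmb3, Psmc2, Psmd2, Psmd12, the chaperones Psmd5, Psmd10 and Psmg1, and Psme2. Psme2 reached the 1 FPKM needed for testing only through PD Setd2KO, with a mean of 1.37 FPKM, beside 0.854 FPKM in PD WT, so the filter favoured its call.

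Some markers of other cells also differed between the genotypes in PD. Summed over 8 spermatogonia markers the level was 12.9 and 18.2 FPKM in PD Setd2KO, against 6.97 and 7.49 FPKM in PD WT, and 3 of the 5 tested were called higher and 0 lower. Stra8 and Dmrt1 reached the 1 FPKM needed for testing only through PD Setd2KO, so the filter favoured a call higher for them. Nanos3 went the other way, with 0.531 and 0.395 FPKM in PD Setd2KO, against 0.670 and 0.689 FPKM in PD WT. None of the 8 was under 0.1 FPKM in either PD group. Of the 12 round spermatid markers 6 were called higher and 3 lower in PD. The part of spermatogonia in the changes of the proteasome genes was not tested.

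Psma5, an alpha ring subunit gene, was the member that kept its call in all 15 alternatives. It had 28.3 and 29.1 FPKM in PD Setd2KO, against 17.2 and 17.4 FPKM in PD WT, with no overlap. The log2 change was 0.51 ± 0.12 (SE, limma, adjusted p = 0.00197, from 0.00185 to 0.017 over the alternatives). Psmd12, a lid subunit gene, had 30.2 and 31.4 FPKM in PD Setd2KO, against 20.9 and 20.3 FPKM in PD WT. It rose by 0.37 ± 0.13 (adjusted p = 0.00799), and lost the call without the second PD Setd2KO library (adjusted p = 0.0671, the highest of its 15 alternatives).

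Psmd10 had the largest change in PD, 0.61 ± 0.17 on the log2 scale (SE, limma, adjusted p = 0.00427), with both Setd2KO libraries above both WT libraries. Its PD Setd2KO levels were 16.1% and 7.31% of the RS Setd2KO mean. Over 517 transcripts specific to RS by the mirrored rule (20 FPKM or more in RS WT, and at most a 20th of it in PD WT), the median share of the RS level was 13.1% and 7.67% in PD Setd2KO, against 1.92% and 2.77% in PD WT. Here too the choice holds the WT share low, and no difference is read from the shares. With RS RNA subtracted at those shares, Psmd10 had a log2 change of 0.10 and was no longer called (adjusted p = 0.459, the highest of 15 alternatives, which began at 0.000301). As the WT shares are held low, this subtraction tends to lower Setd2KO more than WT for genes high in RS. Nothing is read from the calls it ended, and the part of spermatid RNA was not tested. The same subtraction took the calls higher over all tested genes from 3409 to 1622, and of the 13 proteasome genes it left 6. Of the other 6 genes that lost the call, Psma6 had a log2 change of 0.17 with subtraction, beside 0.36 without, and Psmc2 0.23, beside 0.29 (limma, adjusted p = 0.398 and 0.222). The changes of the remaining 4 relative to the all-gene median were larger with subtraction, at 0.35 for Psma1, beside 0.24, 0.33 for Psma3, beside 0.25, 0.47 for Psmd2, beside 0.40, and 0.27 for Psme2, beside 0.16 (adjusted p from 0.0633 to 0.0892). On the deposited scale, on which the test runs, all 4 were smaller with subtraction, as the all-gene median also fell.

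Psma2 rose in PD by 0.39 ± 0.17 (SE, log2, limma, adjusted p = 0.02), and Psmd2, a scaffold subunit gene of the base, by 0.40 ± 0.19 (adjusted p = 0.0358). The Psma2 call was lost without either PD Setd2KO library (adjusted p = 0.0541 and 0.102) and without the first PD WT library (adjusted p = 0.113). The Psmd2 call was lost without either Setd2KO library of PD or of RS and without the second PD WT library, and its adjusted p over 15 alternatives reached 0.181 with quantile normalization. Psmd2 had 132 and 138 FPKM in PD Setd2KO, against 102 and 78.2 FPKM in PD WT. Single libraries moved the PD result, over all genes as well as over the proteasome genes. The median change of the proteasome genes on the deposited scale was 0.33 with all libraries, beside 0.19 over all genes. Without the first PD Setd2KO library it was 0.37, beside 0.20, and without the second 0.29, beside 0.18. Without the first PD WT library it was 0.18, beside 0.13, and without the second 0.42, beside 0.26. The first PD WT library has the lowest sum of FPKM of the 8, 181915.

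The Setd2KO effect in RS minus that in PD was tested as an interaction, and 9 of the 45 genes had a lower effect in RS, with 0 higher, where 35.1% of all tested genes were called, 27.3% lower and 7.76% higher. At an unadjusted limma p under 0.05 there were 13, a count for which the share of all genes was not computed, so nothing is read from it. The median over the 45 was -0.23, beside -0.16 over all genes on the deposited scale. Psmc6 had the largest difference, -1.27 ± 0.20 (SE, limma, adjusted p = 0.000581). It was lower in RS Setd2KO than in RS WT, while in PD it had 20.7 and 22.0 FPKM in Setd2KO, against 15.7 and 17.8 FPKM in WT. Psmg2 differed by -1.09 ± 0.23 (adjusted p = 0.0023), Psmf1 by -0.76 ± 0.21 (adjusted p = 0.00594) and Psma5 by -0.61 ± 0.18 (adjusted p = 0.0066). These 4 genes kept the call in all 14 alternatives. The other calls were Psma1, Psma6, Psmb3, Psmb4 and Psme3.

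Partners of the proteasome outside the rule were described from a list of 34 genes, of which 33 were in the tables and 32 tested. They include ubiquitin, its activating enzymes, substrate shuttles, deubiquitinating enzymes and regulators of proteasome genes. RS against PD gave 6 higher and 18 lower of the 32 in Setd2KO, where 34.2% of all genes were higher and 48.5% lower, and 7 higher and 17 lower in WT, where 36% were higher and 46.7% lower. Pomp, the maturation factor of the core particle, had 9.39 and 9.72 FPKM in RS Setd2KO, 5.82 and 5.95 FPKM in RS WT, 34.2 and 38.6 FPKM in PD Setd2KO, and 25.9 and 36.7 FPKM in PD WT. It fell in both genotypes, by 1.55 ± 0.16 on the log2 scale in Setd2KO (SE, limma, adjusted p = 7.69e-07, and 1.33e-07 in WT). Rps27a, which encodes ubiquitin fused to a ribosomal protein, fell, with log2 changes of -1.87 ± 0.17 in Setd2KO (SE, limma, adjusted p = 2.67e-07) and -1.95 ± 0.17 in WT (adjusted p = 1.99e-07).

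Uba1, the main ubiquitin-activating enzyme, had 17.9 and 24.2 FPKM in RS Setd2KO, 26.8 and 22.4 FPKM in RS WT, 3.22 and 2.46 FPKM in PD Setd2KO, and 0.778 and 0.726 FPKM in PD WT. It rose by 2.78 ± 0.16 in Setd2KO (SE, log2, limma, adjusted p = 7.56e-08) and by 4.07 ± 0.16 in WT (adjusted p = 3.14e-09). In PD, Setd2KO stood above WT by 0.93 ± 0.16 (adjusted p = 0.000771). By its WT levels Uba1 meets the rule used above for transcripts specific to RS. The part of RS RNA in its PD change was not tested.

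Setd2KO against WT gave 7 of the 32 partners higher and 4 lower in RS, where 20.9% of all genes were higher and 21.8% lower, and 7 higher and 0 lower in PD, where 29.8% were higher and 6.3% lower. As a group the partners are not set apart from all genes by these counts. The deubiquitinating enzymes that dock on the regulatory particle were among those higher at both stages. Usp14 had 5.35 and 5.01 FPKM in RS Setd2KO, against 2.09 and 2.27 FPKM in RS WT, and rose by 0.94 ± 0.11 in RS (SE, log2, limma, adjusted p = 6.31e-05) and by 0.26 ± 0.11 in PD (adjusted p = 0.00938). Uchl5 had 14.8 and 14.1 FPKM in RS Setd2KO, against 5.02 and 9.07 FPKM in RS WT, and rose by 0.97 ± 0.23 in RS (adjusted p = 0.00524) and by 0.68 ± 0.23 in PD (adjusted p = 0.0133).

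H3K36me3 covered most proteasome genes in WT and almost none in Setd2KO. A gene was counted as covered when at least 1 base of its interval lay under a peak, which held for 1 of the 50 genes in RS Setd2KO, 37 in RS WT, 0 in PD Setd2KO and 41 in PD WT. Of all 20626 genes, 5.21% were covered in RS Setd2KO, 43.0% in RS WT, 1.91% in PD Setd2KO and 44.4% in PD WT. Low cover in Setd2KO is thus shared by genes at large and is not particular to the proteasome genes. With 1 list a group there was no test. The RS Setd2KO peak was 160 bases wide (chromosome 11, 30686301 to 30686460, mm9), lay in Psme4 and had the authors' score of 51.3.

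Among genes outside the sex chromosomes with at least 1 FPKM, 36 of 41 members (87.8%) were covered in RS WT, beside 75.4% of 9094 genes, and 41 of 42 (97.6%) in PD WT, beside 88.2% of 9033 genes. The median share of the interval under peaks was 88.8% for these members in RS WT, beside 71.1%, and 90.8% in PD WT, beside 81.5%. Along the gene, mean cover of the members in PD WT was 43.3% in the first of 10 equal bins of the body, 76.9% in the next and 93.2% in the last but one. In RS WT it was 44.1%, 71.0% and 83.6% over the same bins. For all genes under the same limits it was 42.1%, 57.2% and 71.9% in PD WT, and 41.5%, 50.6% and 59.2% in RS WT. Cover was thus higher over these later bins than over the first in both sets, which were not matched for level.

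**Figure D5:**
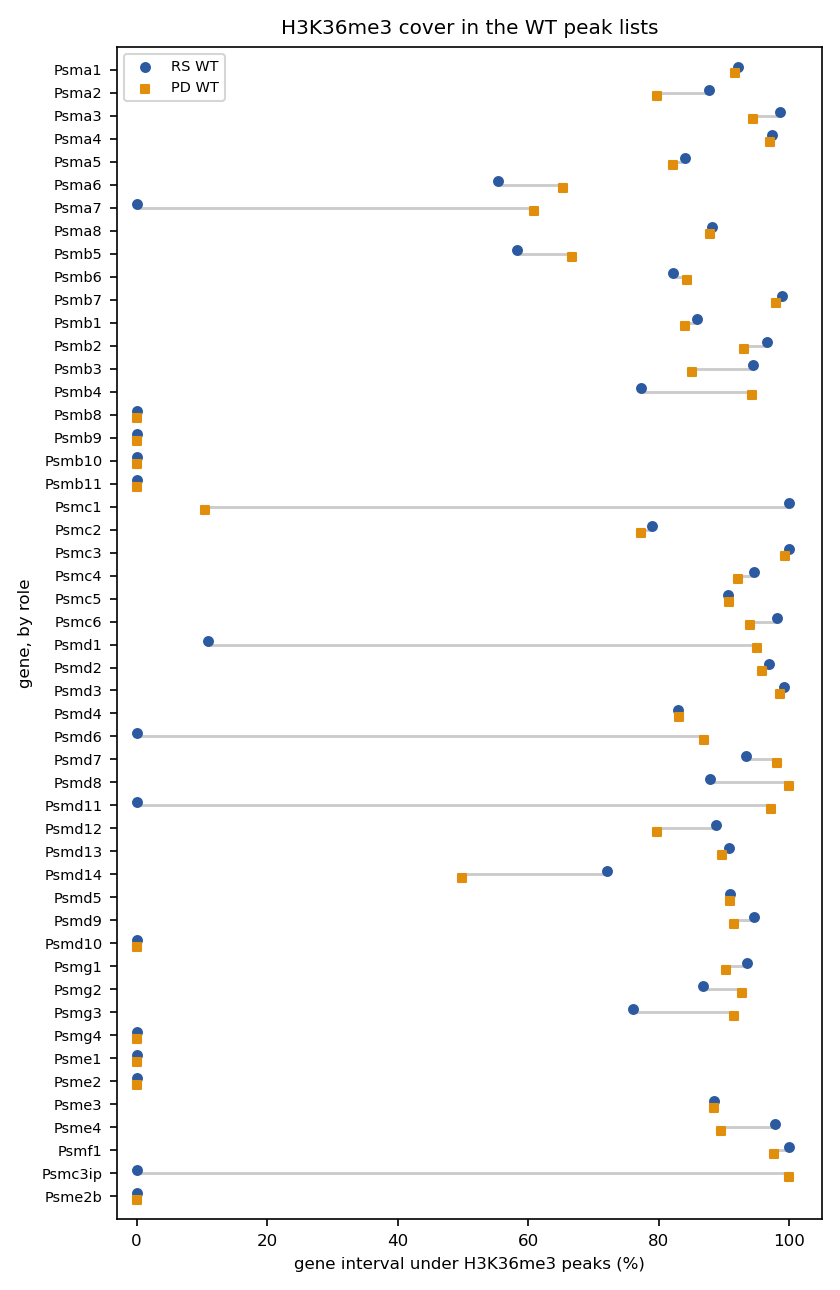
Share of each gene's interval under H3K36me3 peaks in RS WT (circles) and PD WT (squares) for the 50 genes by role, 1 peak list per group. Most genes lie above 75% in both lists. Psma7, Psmd6, Psmd11 and Psmc3ip lie at 0 in RS WT only, Psmd1 is at 10.9% in RS WT and 95.0% in PD WT, and Psmc1 is at 100% in RS WT and 10.5% in PD WT.

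The genes without a peak in either WT list were Psmb8, Psmb9, Psmb10, Psmb11, Psme1, Psme2, Psme2b, Psmd10 and Psmg4. All but the last 2 stood at or under 1.61 FPKM in every library. Neither WT list holds any peak on the X chromosome, so the lack of cover of Psmd10 is not particular to this gene. Psmg4, a core chaperone gene (chromosome 13, 34254833 to 34270041, plus strand), had 4.04 and 4.06 FPKM in RS Setd2KO, 3.65 and 2.06 FPKM in RS WT, 8.51 and 9.28 FPKM in PD Setd2KO, and 5.96 and 7.89 FPKM in PD WT. The nearest peak lay 88659 bases away in RS WT and 88326 bases away in PD WT.

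A few genes changed cover between the WT stages. Psma7, Psmc3ip, Psmd6 and Psmd11 had no peak in RS WT, against cover of 60.9%, 100%, 86.9% and 97.2% of their intervals in PD WT. The nearest RS WT peak lay 117, 4686, 50350 and 13035 bases away. For Psma7 a peak thus ended just outside the interval, and its neighbour Lsm14b was covered over 96.0% in RS WT and 94.9% in PD WT. The neighbour of Psmd11 on the lower coordinate side, Zfp207, also had no peak in RS WT and was covered over 100% in PD WT. Psmd11 nevertheless had 13.9 and 19.9 FPKM in RS WT, and 16.6 and 14.5 FPKM in PD WT, levels that overlap. Psmd1 was covered over 10.9% in RS WT, under 1 peak of 8132 bases, and over 95.0% in PD WT. Psmc1 went the other way, with 100% in RS WT and 10.5% in PD WT, and its neighbour Nrde2 had 94.5% in RS WT and 0% in PD WT.

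Cover in WT was set beside the Setd2KO effect. In RS, 37 covered genes held 4 that rose and 5 that fell, with changes from -1.10 to 0.61, and 8 uncovered genes held 1 that rose and 0 that fell, with changes from -0.05 to 0.41. In PD, 41 covered genes held 11 that rose and 0 that fell, and 4 uncovered genes held 2 that rose and 0 that fell. Of all tested genes, 20.9% were called higher and 21.8% lower in RS, and 29.8% higher and 6.3% lower in PD. The uncovered genes that rose were Psme2 in RS, and Psme2 and Psmd10 in PD. Psme2 reached the filter only through PD Setd2KO, and Psmd10 lies on the X chromosome, where neither list holds a peak. Calls over all genes were not split by cover, so nothing is read from these counts. Psmc6, Psmg2 and Psmf1, which fell in RS Setd2KO, were covered over 98.2%, 86.8% and 100% in RS WT, and Psmd14, which rose, over 72.1%. Many covered genes, such as Psmc4 with 94.6% in RS WT and a change of 0.08 ± 0.16 (limma, adjusted p = 0.669), did not pass the test, while Psme4 held the one peak left in RS Setd2KO.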

How the data were processed

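The deposited RNA-seq values are FPKM, made by the authors with CASAVA, TopHat2, Cufflinks and Cuffdiff on mm9, per the submitters' processing notes, in 1 table per group, so that every test here runs across tables. H3K36me3 came as 1 deposited peak list per group with the authors' score for each peak. The notes name CASAVA, Bowtie and bedtools. The labels list spike-in chromatin, and its use in scaling the peaks is not given in the sources used here.

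A gene entered the tests if its group mean reached 1 FPKM anywhere, and log2(FPKM + 1) of 8 libraries was fitted with limma 3.58.1 (R 4.3.3) with an intensity trend and a mean per group, which gave 4 residual and 6.92 prior degrees of freedom. Genes were called at an adjusted p under 0.05. An exact permutation test of 2 libraries against 2 cannot go under p = 0.3333. Whole reads were recovered from FPKM steps with a tolerance of 0.003, which gave the depth and, for 49 of 50 members, the model length. Cover and motifs were computed in Python 3.11.15. Coordinates of genes and peaks are 1-based mm9.

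All 50 members could be named, with values in every library for the pairs and activators and the 5 largest called changes per direction. The members, lists and tests were chosen with earlier results of these data known. Replicate numbers were not used to pair the samples. The deviations of same-numbered libraries from their group means had correlations between groups of -0.31 to 0.07, which cannot show whether the numbers mark pairs. Alternatives were the pseudocount, the filter, upper-quartile and quantile scaling, a replicate block, subtraction of the other cell type's RNA, each library left out, a stricter peak score and a larger overlap. Input libraries were not used here. Genes overlapping members were Psma4 with AY074887, Psmc3ip with Mlx, Psmd1 with Htr2b, Psme1 with Emc9 and Psme2b with 9930111J21Rik1. Whether counting used strand is not given in the sources used here.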

Additional observations from a re-analysis of the deposited data

Results flagged for a closer look

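The Setd2KO effect in RS differed from that in PD for 9 of the 45 genes (20%) by the interaction term of limma, each with a lower effect in RS. Of all 11452 tested genes 27.3% were called lower and 7.76% higher by that term. A lower effect in RS is thus not particular to the proteasome genes. On the log2 scale relative to the all-gene median, the difference was -1.27 for Psmc6, -1.09 for Psmg2, -0.83 for Psmb4, -0.76 for Psmf1, -0.61 for Psma5, -0.55 for Psma6, -0.54 for Psme3, -0.46 for Psma1 and -0.40 for Psmb3. Over 14 alternatives the adjusted p ran up to 0.0739 for Psmb4, 0.212 for Psma6, 0.0749 for Psme3, 0.111 for Psma1 and 0.176 for Psmb3, and these 5 lost the call in at least 1 of them. Psmb4 lost it without the first RS Setd2KO library (adjusted p = 0.0509) and without the first RS WT library. Psme3 lost it without the second PD Setd2KO library, the first RS Setd2KO library or the first RS WT library. Psma1 and Psmb3 lost it without any of 7 libraries taken singly, all but the second PD WT library, and Psma6 without any of 6, all but that one and the second RS Setd2KO library. With 2 libraries a group, no group could be tested for a sample that stands apart.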

How the results depend on the processing

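On the deposited scale, direction was kept by every called proteasome gene in every alternative run. No alternative was run for the partner genes. Relative to the all-gene median, Psmd9 for RS against PD in Setd2KO was at 0.06 with quantile normalization. The counts of called genes moved more than the directions. In PD, where 13 were higher and 0 lower, 7 were higher with no filter on low values and 6 with spermatid RNA subtracted, and 1 was lower with upper-quartile scaling and 3 with quantile normalization. Over all genes in PD 3409 were higher, 3576 of 20051 with no filter and 1622 with that subtraction. Lower over all genes were 721, 1277 with upper-quartile scaling and 1787 with quantile normalization. In RS, where 5 were higher, 3 were higher with spermatocyte RNA subtracted and with no filter, and 8 with either scaling. Over all genes in RS 2390 were higher, 2174 with that subtraction and 4324 of 20051 with no filter. Upper-quartile scaling gave 3034 and quantile normalization 3008. For the difference between the effects, 1 was higher with either scaling. Over all genes 889 were higher, 1833 with upper-quartile scaling and 2327 with quantile normalization. The 1 peak over a member in RS Setd2KO gave 0 at a score of at least 60, and 0 where 50% of the interval had to be covered. The causes were not tested.

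Leaving out 1 library gave 2 to 25 higher and 0 to 3 lower in PD, 1 to 7 higher and 3 to 8 lower in RS, 5 to 6 higher and 30 to 35 lower for RS against PD in Setd2KO, 5 to 8 higher and 26 to 31 lower in WT, and 0 to 2 higher and 4 to 17 lower for the difference. A group left with 1 library was assumed to vary like the others. Upper-quartile scaling moved the all-gene median in PD to 0.10 and quantile normalization to 0.00, and the share of all PD calls that were higher moved to 67.2% and 45.7%, beside 82.5%. With the replicate block the counts were 12 higher and 0 lower in PD, 4 and 5 in RS, 5 and 33 for RS against PD in Setd2KO, 5 and 28 in WT, and 0 and 7 for the difference. Over all 11452 genes they were, in the same order, 3223 and 671, 2281 and 2414, 3913 and 5540, 4118 and 5340, and 826 and 2996. Psmb8 and Psmb9 rest on 0 to 4 reads a library, so changes in them were not detectable at this depth.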
